A study of Homo sapiens with 26 samples.

Results

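The comparison described here set bronchial epithelial cells with DeltaF508 CFTR in high glucose against cells with WT CFTR in normal glucose, across all genes of the count table. Its 12 libraries, 6 a group, were taken by their labels from the 26 of the series. The CF libraries came from 16HBEge, a gene-edited derivative of the immortalised human bronchial epithelial line 16HBE14o-, and the WT libraries from 16HBE14o- itself. The CF cells were kept in medium with 17.5 mM glucose and the WT cells in medium with 5.5 mM. In all groups used, 250000 cells were plated per well on Transwell filters, the medium was replaced every day for 7 days, 2 filters were pooled into each RNA sample, and mRNA was selected by its poly(A) tail. CF cells in normal glucose (6 libraries) and WT cells in high glucose (5 libraries) entered the same fit, because they separate what the cell line and what the medium contributed. The 3 WT libraries labelled as not polarized were left out. Only 1 edited line stands for the CF genotype, so the CFTR genotype and any other difference between the lines cannot be told apart. Nothing in the labels says that libraries stem from independent cultures, so p-values below measure only the spread between these samples, which may be technical.

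CFTR is the apical chloride and bicarbonate channel whose loss of function causes cystic fibrosis, and DeltaF508 is a folding mutation that keeps most of the protein from the cell surface. Diabetes is a common complication of cystic fibrosis, and glucose then rises in the thin liquid layer over the airways. Inside cells, glucose 6-phosphate activates the transcription factors MondoA and ChREBP, which switch on TXNIP and ARRDC4, while hypoxia-inducible factors drive many genes of glucose uptake and glycolysis.

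Total gene counts per library ran from 14658319 to 20413839 over the series, from 14736391 to 18338084 in CF high glucose and from 15274958 to 20413839 in WT normal glucose. Levels below are in CPM, gene counts relative to the library's total after TMM scaling, given as the range and median over a group's libraries. Of 11 airway epithelial markers (KRT8, KRT19, EPCAM, CDH1 and others), 10 averaged at least 1 CPM in each of the 4 groups and TP63 did not. Their summed level was 6100 to 7170 CPM in CF high glucose and 5615 to 6504 CPM in WT normal glucose. The club and goblet markers summed to under 2 CPM in every library of both groups, with SCGB1A1 and MUC5AC at or near 0. Ciliated and ionocyte markers summed to 574 to 678 CPM in CF high glucose and 587 to 675 CPM in WT normal glucose, nearly all from TUBB4B. In the same order, CAPS averaged 15.4 and 5.54 CPM and FOXI1 6.91 and 11.1 CPM. Endothelial markers summed to 50.7 to 56.3 CPM in CF high glucose and 26.2 to 32.8 CPM in WT normal glucose, carried by CDH5, KDR and ROBO4, with PECAM1 near 0. Fibroblast markers summed to 26.0 to 37.4 and 30.8 to 49.0 CPM, carried by COL1A1, with DCN at 0 or near it. Leukocyte markers summed to 10.9 to 15.8 and 8.06 to 12.6 CPM, carried by LAPTM5 and ITGAM, with PTPRC near 0. The part of these markers in any result was not tested. The first principal component (37.6% of the variance) separated the lines and the next (19.7%) set the libraries with numbers 4 to 6 apart from numbers 1 to 3, so the fit carried a term for that number set. In bulk RNA, fewer cells of a type and less RNA per cell cannot be told apart.

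The difference between CF high glucose and WT normal glucose (the total) is the sum of a line effect, CF minus WT averaged over both glucose levels, and a glucose effect, high minus normal averaged over both lines, all on the log2 scale. A gene was called at a Benjamini-Hochberg adjusted p under 0.05 in edgeR's quasi-likelihood test. The total was called for 6284 of 16338 genes tested (38.5%), 3182 higher in CF high glucose (19.5%) and 3102 lower (19%). The groups' libraries did not overlap for 2521 genes (15.4%), 1250 higher and 1271 lower. A difference of 2-fold or more was called for 358 genes upward and 492 downward. The line effect was called for 7227 genes (44.2%; 22.7% higher and 21.6% lower) and the glucose effect for 3876 (23.7%; 12.1% higher and 11.6% lower). The line effect was the larger of the pair in 4610 of the 6284 genes called in the total (73.4%). Taken in steps, the line effect was called for 5636 genes in normal glucose (34.5%) and 4973 in high glucose (30.4%), and the glucose effect for 1418 in WT cells (8.68%) and 2812 in CF cells (17.2%). Of the 850 genes past 2-fold, 804 had a called line effect, 228 a called glucose effect, and 27 a called glucose effect alone.

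Both effects were called in the same direction for 960 genes (5.88%), 525 upward (3.21%) and 435 downward (2.66%). All 960 were called in the total, with a median absolute total of 0.50. Because the total is the sum of both effects, called effects of the same sign leave little room for an uncalled total. For the same reason, opposed effects shrink the total. The effects opposed each other for 1188 genes (7.27%): 615 were higher in CF and lower in high glucose (3.76%), and 573 were lower in CF and higher in high glucose (3.51%). Of these 1188 genes, 818 (68.9%) were not called in the total, and 587 had an absolute total under 0.1. Their median absolute total was 0.10, against median absolute line and glucose effects of 0.30 and 0.23. Where an opposed pair left a called total, its direction was mostly that of the line: 148 of 189 calls among genes with a higher line effect and 166 of 181 among genes with a lower one. Since all effects share libraries, the fit itself ties them. The layout gives the errors of the averaged effects a correlation of -0.05, while a step-by-step sum through CF normal glucose would give -0.5. Errors of the total have a correlation of 0.69 with those of each averaged effect.

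**Figure D1:**
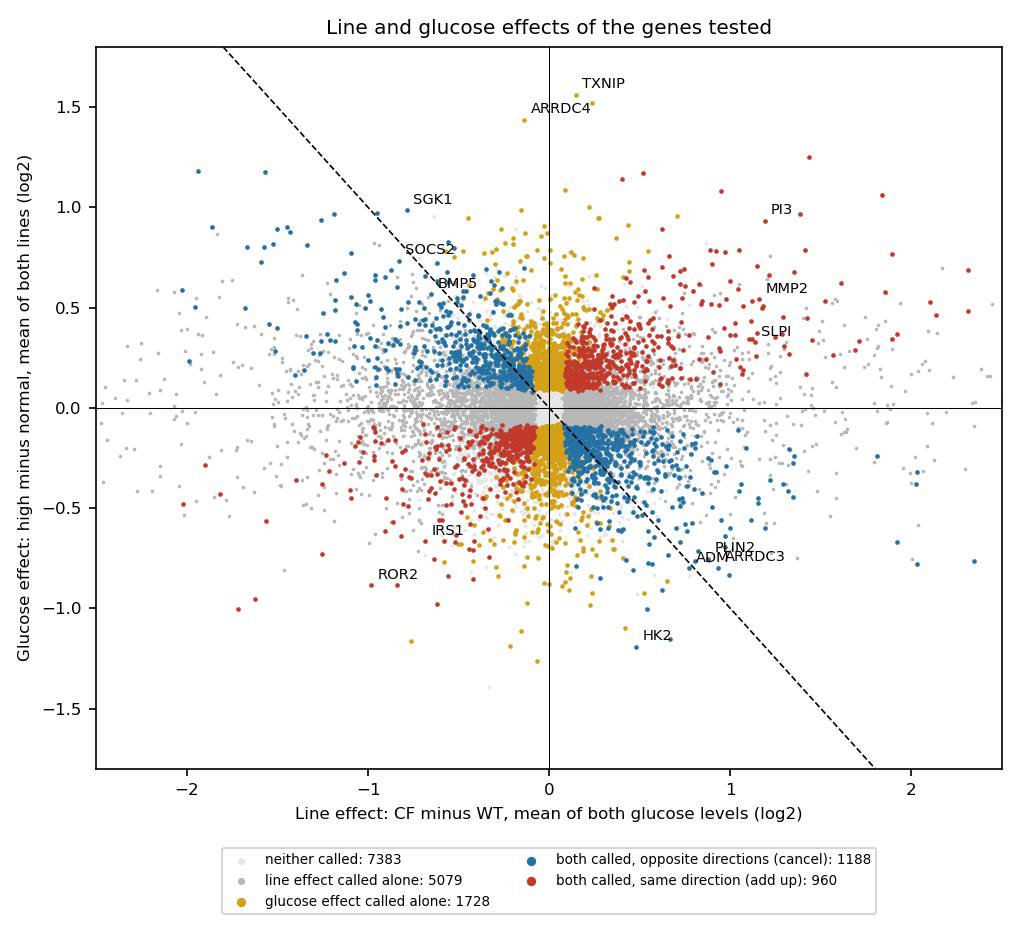
Line effect (x axis, log2) against glucose effect (y axis, log2), 1 point per gene tested, coloured by which effects were called; the dashed diagonal marks a sum of 0 and 105 genes lie outside the axes. TXNIP and ARRDC4 stand high on the glucose axis near a line effect of 0, PI3 and ROR2 stand at opposite corners away from the diagonal, and ADM and SOCS2 lie close to it.

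**Figure D2:**
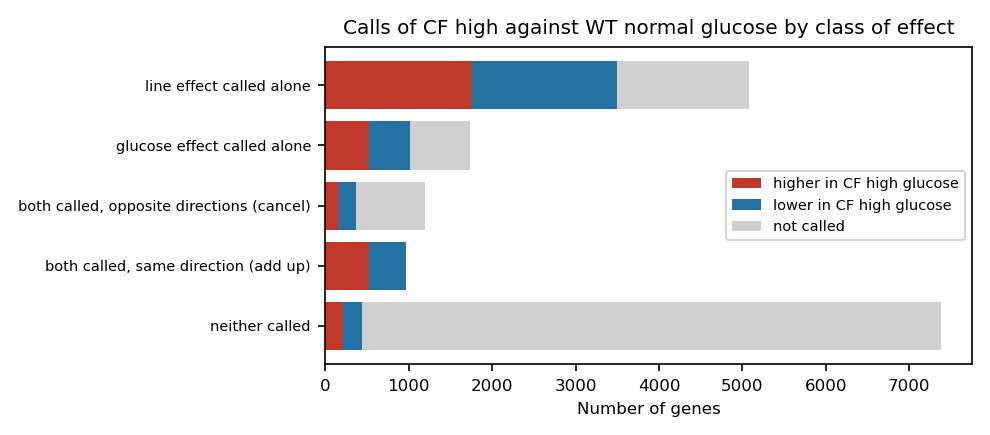
Number of genes (x axis) in each class of line and glucose calls, split by their call in CF high against WT normal glucose. All 960 genes whose effects add up were called, while 818 of the 1188 whose effects cancel were not. Both counts follow in large part from the total being the sum of the effects.

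Fits on each number set alone share their libraries with the fit over all. Fitted on libraries 1 to 3 alone, the total was called for 4236 genes, 3734 of which were also called over all libraries, and on libraries 4 to 6 alone for 5524, of which 4634 were. The same-direction class held 444 and 595 genes in the number sets alone, and the opposed class 558 and 956.

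In 27 genes a total past 2-fold came with a called glucose effect alone, among them TXNIP and ARRDC4, arrestin-family genes that respond to glucose. TXNIP (chr1:145992435-145996600 in hg38), whose protein restrains glucose uptake, stood at 886 to 998 CPM (median 940.1) in CF high glucose and at 217 to 353 CPM (median 287) in WT normal glucose, with no overlap. Its total was 1.71 ± 0.15 (SE; 3.27-fold; adjusted p = 1.22e-08, edgeR), made of a glucose effect of 1.56 and a line effect of 0.15 that was not called. In libraries 1 to 3 alone the line effect was called at 0.24. ARRDC4, its relative in the same family, stood at 89.0 to 117 CPM (median 111) against 33.5 to 57.7 CPM (median 41.8), again without overlap, for a total of 1.30 ± 0.14 from a glucose effect of 1.44 and an uncalled line effect of -0.14. CLDN1, a sealing claudin of the tight junction, rose by 0.30 with a glucose effect of 0.24 and a line effect of 0.06 that was not called. KLF10, a zinc-finger repressor, rose by 0.56 on a glucose effect of 0.70 against a small called line effect of -0.14. Of the 17 tested genes (20 listed) that are known to respond to glucose, 6 rose and 4 fell in the total, beside 19.5% and 19% of all genes. The effects added up in 2 of them and opposed each other in 6 (3 without the number-set term or in libraries 1 to 3 alone), with medians of 0.02 for the line effect and -0.03 for the glucose effect beside 0.00 and -0.00 over all genes. Among all genes 5.88% added up and 7.27% were opposed. The glucose effect was called higher for 7 of the 17 and lower for 5, beside 12.1% and 11.6% of all genes. Without the number-set term, or in libraries 1 to 3 alone, these counts were 5 and 4.

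The 250 bases before the RefSeq start sites (GRCh38.p14) of TXNIP and ARRDC4 are printed because these genes carry the glucose effect upward, and those of EGLN1 and PDK1 because they had the lowest p for glucose on the hypoxia list described below, where the effect was downward. Capitals mark matches on either strand to CACGTG (E-box) or ACGTG (core of the hypoxia response element), or, in TXNIP, to a paired form, CACGNG followed after any 5 bases by CACGNG, that was searched only after the TXNIP sequence had been seen.
ARRDC4 (chr15:97960453-97960702, plus strand): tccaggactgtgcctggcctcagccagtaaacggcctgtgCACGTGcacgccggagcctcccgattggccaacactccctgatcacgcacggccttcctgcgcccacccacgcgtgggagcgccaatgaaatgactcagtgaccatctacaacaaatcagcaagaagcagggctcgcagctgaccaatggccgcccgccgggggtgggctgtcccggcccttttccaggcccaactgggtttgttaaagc
TXNIP (chr1:145996580-145996829, minus strand): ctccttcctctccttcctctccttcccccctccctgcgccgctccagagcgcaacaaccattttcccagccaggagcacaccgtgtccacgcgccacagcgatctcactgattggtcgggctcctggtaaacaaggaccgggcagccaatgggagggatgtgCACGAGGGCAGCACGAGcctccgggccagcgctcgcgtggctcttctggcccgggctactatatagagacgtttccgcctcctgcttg
EGLN1 (chr1:231422288-231422537, minus strand): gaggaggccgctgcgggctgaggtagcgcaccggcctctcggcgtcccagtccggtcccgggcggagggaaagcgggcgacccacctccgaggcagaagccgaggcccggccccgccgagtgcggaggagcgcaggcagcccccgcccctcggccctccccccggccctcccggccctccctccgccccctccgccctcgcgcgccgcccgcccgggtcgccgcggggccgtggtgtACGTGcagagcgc
PDK1 (chr2:172555123-172555372, plus strand): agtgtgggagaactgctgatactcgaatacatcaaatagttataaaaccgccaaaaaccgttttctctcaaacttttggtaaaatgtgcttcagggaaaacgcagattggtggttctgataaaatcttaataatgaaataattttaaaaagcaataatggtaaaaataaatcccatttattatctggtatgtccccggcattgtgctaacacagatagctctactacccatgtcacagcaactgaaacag
ARRDC4 held CACGTG beginning 210 bases before its start, and the ACGTG match on each strand lay within it. TXNIP held the paired motif beginning 88 bases before its start and neither of the other motifs, EGLN1 held ACGTG 13 bases before its start, and PDK1 held none of them in this window. Among 34941 windows of the same length, 6.32% held CACGTG, 18.5% held ACGTG and 0.0458% held the paired form.

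The largest totals with reads in both groups came from the line effect. PTPRG (chr3:61561569-62297613), a receptor tyrosine phosphatase, stood at 53.7 to 66.7 CPM (median 63.2) in CF high glucose and 1.84 to 3.09 CPM (median 2.62) in WT normal glucose, a total of 4.62 ± 0.10 (adjusted p = 5.75e-31, edgeR) beside an uncalled glucose effect of -0.14. PTGS2, the inducible cyclooxygenase of prostaglandin synthesis, stood at 11.9 to 16.7 CPM (median 14.1) against 0.644 to 1.5 CPM (median 1.13), and here glucose took part of the line effect away: 4.34 for the line, -0.62 for glucose and 3.72 in total. Neither gene's libraries overlapped, which the rule that named them required. GABRP, a GABA-A receptor subunit made by epithelia, rose by 3.05, SLC12A8 by 2.85, the ectoenzyme BST1 by 2.59 and the calcium-binding S100P by 2.38, each with a glucose effect that was not called. In PIK3AP1, a signalling adaptor, glucose added to the line: 2.14 and 0.46 made 2.60.

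Downward, the proteoglycan SRGN (serglycin) had the largest total among genes with at least 5 CPM on average in 1 group and 1 CPM in the other. It stood at 1.86 to 5.30 CPM (median 3.57) in CF high glucose and 68.7 to 130.0 CPM (median 93.4) in WT normal glucose, so that a line effect of -5.39 was only slightly offset by a glucose effect of 0.68. CERS6, a ceramide synthase, stood at 1.93 to 2.60 CPM (median 2.46) against 19.5 to 27.0 CPM (median 23) and had a total of -3.31. The groups overlapped for neither gene, which the rule that named them required. The matrix fibrillin FBN3 (-2.5), C3orf58 (-2.5), the monocyte chemokine CCL2 (-2.46), the protease inhibitor TFPI2 (-2.35) and the peroxide-reducing PRDX2 (-2.30) fell too. Of these 5, glucose added to the line in FBN3 (-0.48), opposed it in CCL2 (0.25) and was not called in the others. Some genes were near absent from 1 line. MAN1A1, a Golgi mannosidase, stood at 8.39 to 12.4 CPM (median 10.3) in CF high glucose and 0 to 0.298 CPM (median 0.0540) in WT normal glucose. The phosphatase subunit PPP2R2B stood at 0 to 0.200 CPM (median 0.0551) against 4.48 to 6.46 CPM (median 5.08), and the membrane mucin MUC4 at 0.106 to 0.228 CPM (median 0.187) against 8.23 to 13.3 CPM (median 11.7). TSPYL5 had no count in any CF high glucose library, which allows up to 0.0294 CPM over the group (3 counts), and 7.15 to 10.4 CPM (median 8.53) in WT normal glucose, at least 298-fold higher; this bound covers counting error only.

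Genes with both effects called are named by rank on the smaller of their effects, a ranking that favours large values. Upward, the effects added up most in PI3, G0S2 and CFB. PI3 (chr20:45174876-45176544), the elastase inhibitor elafin, stood at 7.88 to 10.7 CPM (median 8.22) in CF high glucose and 1.71 to 2.64 CPM (median 2.00) in WT normal glucose, without overlap. CF cells in normal glucose, at 3.66 to 6.12 CPM (median 5.38), and WT cells in high glucose, at 2.95 to 5.58 CPM (median 4.68), lay between. Its total of 2.12 ± 0.15 (4.36-fold; adjusted p = 4.68e-15, edgeR) was made of 1.19 from the line and 0.93 from glucose. MMP2, a gelatinase that cuts basement membrane collagen, stood at 57.5 to 89.9 CPM (median 73.9) against 20.6 to 24.4 CPM (median 21.8), with effects of 1.16 and 0.54 and a total of 1.70. CFB, factor B of the alternative complement pathway, stood at 9.67 to 15.6 CPM (median 13.9) against 2.97 to 5.24 CPM (median 4.42), with effects of 1.04 and 0.59. In all 3 genes every CF high glucose library lay above every WT normal glucose library. The phospholipase PLA2G4E (1.65), the short-chain fatty acid receptor FFAR2 (1.35), the lipolysis inhibitor G0S2 (1.34) and the membrane protease TMPRSS3 (1.20) rose in the same way. In G0S2 the effects were 0.68 from the line and 0.66 from glucose, but 0.45 and 0.84 in libraries 1 to 3 alone and 0.93 and 0.45 in 4 to 6 alone. In TMPRSS3, the line effect was not called in libraries 1 to 3 alone (0.27, adjusted p = 0.199).

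Downward, the effects added up most in ROR2 and IRS1. ROR2 (chr9:91563091-91950162), a receptor tyrosine kinase for Wnt ligands, stood at 9.16 to 13.9 CPM (median 12.1) in CF high glucose and 39.2 to 45.8 CPM (median 43.8) in WT normal glucose, with 22.6 to 28.9 CPM (median 27.9) in CF normal glucose and 25.8 to 31.9 CPM (median 27.5) in WT high glucose between them. The total was -1.87 ± 0.08 (adjusted p = 1.89e-21, edgeR), from -0.98 for the line and -0.88 for glucose. Glucose lowered it more in CF than in WT cells (-1.17 against -0.60; interaction -0.57, adjusted p = 0.00571). IRS1, the adaptor that passes on insulin and IGF receptor signals, stood at 12.9 to 21.2 CPM (median 16.4) against 36.5 to 50.5 CPM (median 42.2), with effects of -0.68 and -0.66 and a total of -1.35. FAT4, a giant cadherin of planar polarity, stood at 3.59 to 7.59 CPM (median 5.45) against 11.4 to 13.5 CPM (median 12.7), with effects of -0.52 and -0.67. The groups did not overlap for ROR2, IRS1 or FAT4. ZNF469 (-1.24), CDKL2 (-1.17), the sphingolipid enzyme DEGS2 (-1.05) and the ketone-body enzyme BDH1 (-1.02) fell in the same way with FBN3. For DEGS2 the number sets alone did not both keep the classes: glucose was not called in libraries 1 to 3 (-0.33, adjusted p = 0.115) and the line was not in libraries 4 to 6 (-0.20, adjusted p = 0.278).

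**Figure D3:**
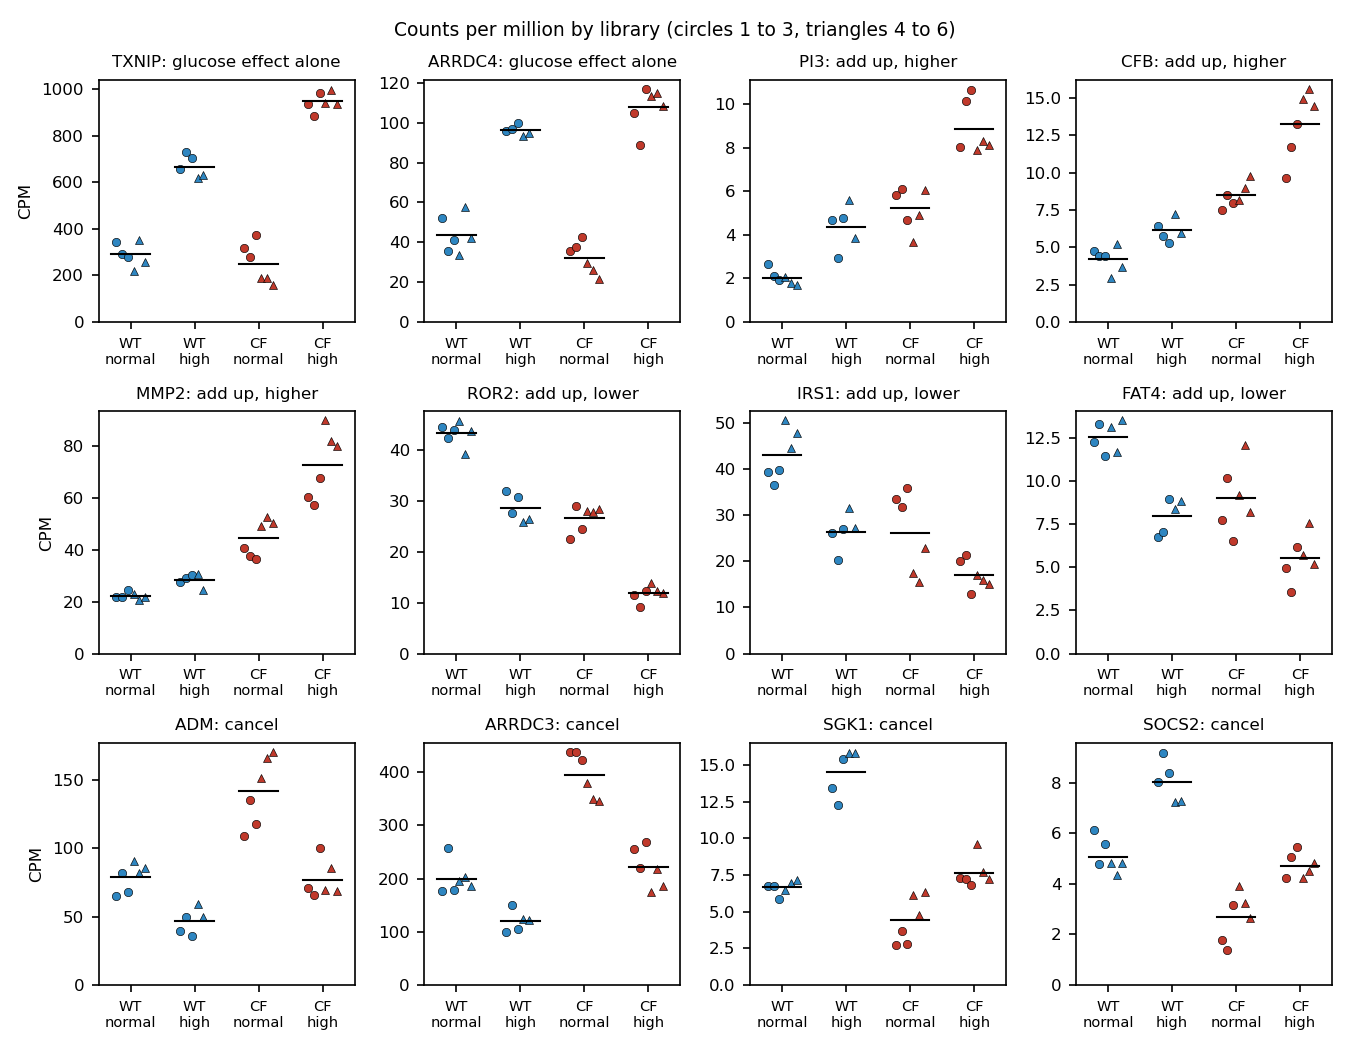
CPM (y axes, linear from 0) in each library of the 4 groups (x axes; high and normal are glucose levels), circles for libraries 1 to 3, triangles for 4 to 6, bars for group means. PI3, CFB and MMP2 climb and ROR2, IRS1 and FAT4 descend over WT normal, the 2 single changes and CF high, while for ADM, ARRDC3, SGK1 and SOCS2 the outer groups overlap or lie close and the inner groups stand apart.

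A higher line effect and a lower glucose effect of like size left several genes near their starting level. ADM (chr11:10304680-10307397), the vasodilator peptide adrenomedullin, stood at 66.2 to 100 CPM (median 70.1) in CF high glucose and 64.8 to 90.7 CPM (median 82.0) in WT normal glucose, overlapping groups, but at 109 to 170.4 CPM (median 144) in CF normal glucose and 36.0 to 59.1 CPM (median 49.4) in WT high glucose. Effects of 0.77 and -0.80 left a total of -0.03 ± 0.12 (adjusted p = 0.889, edgeR), although libraries 4 to 6 alone gave a called total of -0.21 (adjusted p = 0.0418). ARRDC3, an arrestin that steers receptors through endosomes, stood at 175 to 269.7 CPM (median 219.6) against 176 to 258 CPM (median 191), also overlapping, with 0.93 from the line, -0.80 from glucose and an uncalled total of 0.14. Its relatives TXNIP and ARRDC4 had no called line effect and a glucose effect of the opposite sign. PLIN2, a coat protein of lipid droplets, stood at 35.8 to 44.3 CPM (median 36.4) in CF high glucose and 30.2 to 39.8 CPM (median 36.0) in WT normal glucose, overlapping groups, with effects of 0.88 and -0.75 and an uncalled total of 0.13; libraries 1 to 3 alone called it at 0.32 (adjusted p = 0.0117). ANKRD37, a hypoxia-induced ankyrin repeat protein, had effects of 0.81 and -0.76 and a total of 0.04 that was not called, but in libraries 4 to 6 alone the total was called with the other sign (-0.35, adjusted p = 0.0480).

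In other genes of this kind 1 effect outweighed the other. In GNAO1, a G-protein alpha subunit, and PKHD1, which encodes the ciliary protein fibrocystin, line effects of 2.03 and 3.18 outweighed glucose effects of -0.78 and -0.76, and the totals of 1.25 and 2.42 were called without overlap between groups. In HK2, the inducible hexokinase, glucose outweighed the line: 199.5 to 289 CPM (median 224) in CF high glucose against 310.1 to 476 CPM (median 391) in WT normal glucose, from 0.48 and -1.19, with a total of -0.71 ± 0.10 (adjusted p = 6.83e-06, edgeR) and no overlap. DLL1, a Notch ligand, was lowered by glucose (-0.79) against a small line effect of 0.15 and fell by 0.64 in total. The totals of SEMA5B (0.28, adjusted p = 0.0447, edgeR) and PAG1 (-0.48, adjusted p = 0.0384) lay near the threshold, and with the library number as a block their adjusted p were 0.0564 and 0.0734. The call of SEMA5B was lost without CF high glucose library 1, 4, 5 or 6, CF normal glucose library 6 or WT normal glucose library 2, 3, 4, 5 or 6 (0.20 to 0.28), and that of PAG1 without CF high glucose library 1, 2, 3 or 6 or WT normal glucose library 1, 2, 3 or 6 (-0.46 to -0.34). Neither held within both number sets: SEMA5B was at 0.01 in libraries 1 to 3 alone and PAG1 at -0.01 in 4 to 6 alone, and the line effect of PAG1 was not called in 1 to 3 alone (0.19).

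In the opposite arrangement, CF cells stood lower and glucose raised the level. SGK1 (chr6:134169246-134318112), a kinase that keeps the epithelial sodium channel at the membrane, stood at 6.84 to 9.59 CPM (median 7.28) in CF high glucose and 5.89 to 7.16 CPM (median 6.75) in WT normal glucose, overlapping groups, but at 2.72 to 6.35 CPM (median 4.25) in CF normal glucose and 12.3 to 15.9 CPM (median 15.4) in WT high glucose. Effects of -0.79 and 0.99 left a total of 0.20 ± 0.12 (adjusted p = 0.189, edgeR). SOCS2, a suppressor of cytokine receptor signalling, stood at 4.22 to 5.47 CPM (median 4.68) against 4.37 to 6.12 CPM (median 4.81), and effects of -0.83 and 0.73 left -0.10. The growth factor BMP5 had effects of -0.65 and 0.57 and a total of -0.08. These totals were not called. In the tissue plasminogen activator PLAT, glucose made up part of a line effect of -1.59 (0.73; total -0.86), and the same held for the tryptophan-degrading enzyme IDO1 (-1.86, 0.90, -0.96) and TCIM (-5.82, 1.19, -4.63). The total of the vitamin D-degrading CYP24A1 (-0.46, adjusted p = 0.0289) was lost without CF high glucose library 4 (-0.32) or without WT normal glucose library 1 (-0.43), 3 (-0.42) or 4 (-0.41).

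The hypoxia list, target genes of hypoxia-inducible factors, had mostly higher line effects and lower glucose effects. All 23 genes were tested. The line effect was higher for 14 and lower for 3, and the glucose effect was higher for 1 and lower for 18. Over all genes these shares were 22.7% and 21.6% for the line and 12.1% and 11.6% for glucose. The medians were 0.31 for the line and -0.39 for glucose, and the total, with 7 genes higher and 9 lower, had a median of -0.09 beside -0.01 over all genes. By line, the median glucose effect was -0.57 in CF and -0.24 in WT cells. By medium, the median line effect was 0.46 in normal and 0.17 in high glucose. Among all genes the total was higher for 19.5% and lower for 19%. Both effects were called and opposed in 10 genes (8 in libraries 1 to 3 alone, 12 in 4 to 6 alone), where 7.27% of all genes were. The effects added up in 3, beside 5.88% of all genes. Totals were higher for CA9, a membrane carbonic anhydrase that averaged under 1 CPM in every group (1.54), the lipid droplet protein HILPDA (0.56) and the angiogenic factor VEGFA (0.35). In VEGFA the line effect of 0.53 exceeded a glucose effect of -0.18 that differed between lines (-0.37 in CF, 0.01 in WT; interaction adjusted p = 0.00803, edgeR). Totals were lower for the mitophagy receptor BNIP3L (-0.79 and -0.30 made -1.10) and the oxygen sensors EGLN1 (-0.38) and EGLN3 (-0.52), whose line effects were not called. PDK1, a kinase that inhibits pyruvate dehydrogenase, fell by 0.16 in total from 0.30 and -0.46. CA9, HILPDA, EGLN1, EGLN3 and PDK1 were named after their values were seen.

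**Figure D4:**
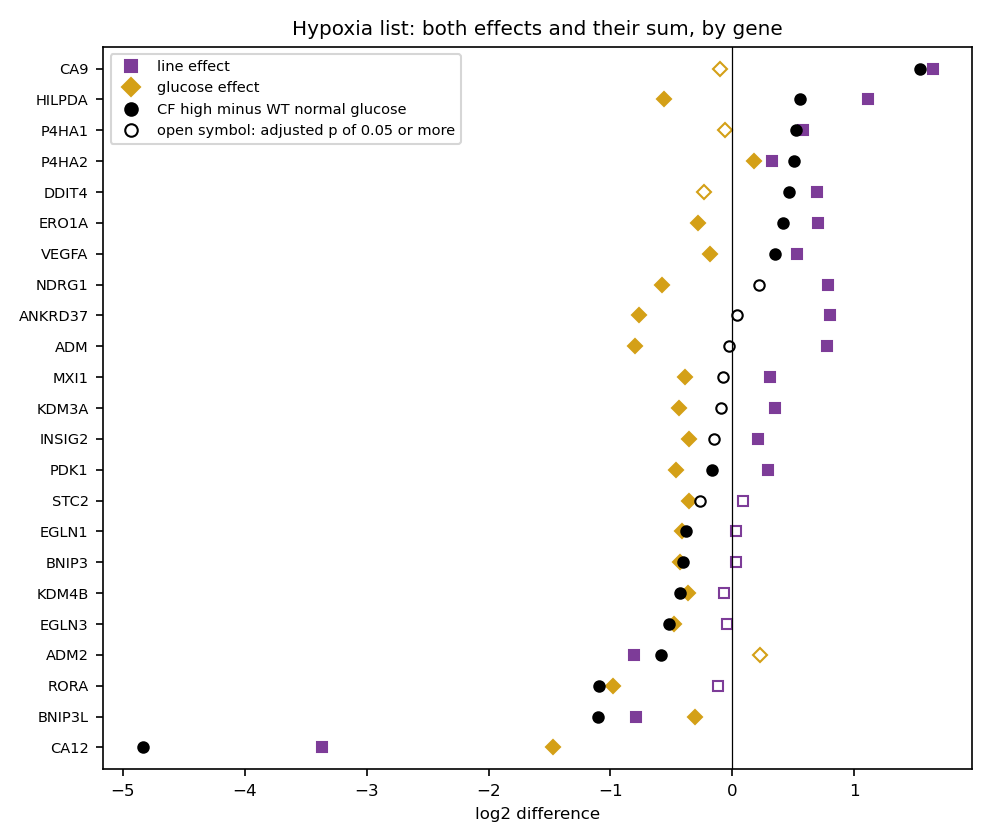
Line effect, glucose effect and total (x axis, log2) of the 23 hypoxia genes, ordered by their total; filled symbols were called. Most line effects lie to the right of 0 and most glucose effects to the left. The totals run from CA12 at -4.84 to CA9 at 1.54, both of which averaged under 1 CPM in every group.

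The same arrangement was smaller among genes of glycolysis. Of 27 tested genes of glucose transport and glycolysis (28 listed), the line effect was higher for 13 and lower for 1, and the glucose effect was higher for 4 and lower for 13. In the total 10 rose and 7 fell (median 0.08), and the effects opposed each other in 7 (4 in libraries 1 to 3 alone). Among all genes the line effect was higher for 22.7% and lower for 21.6%, and glucose for 12.1% and 11.6%. Opposed effects were called for 7.27% of all genes. The transporter SLC2A10 rose by 1.02 on effects that added up (0.57 and 0.45), and the aldolase ALDOC by 1.14 on the line alone. The main transporters SLC2A1 (0.16, -0.45, total -0.30) and SLC2A3 (0.39, -0.52, total -0.13) had opposed effects and fell. On the polyol and hexosamine list, side routes of glucose, 7 of 18 tested (20 listed) rose and none fell, beside 19.5% higher and 19% lower over all genes. AKR1B1, the aldose reductase that begins the polyol route, stood at 28.1 to 40.0 CPM (median 35.4) in CF high glucose and 13.3 to 18.3 CPM (median 14.4) in WT normal glucose, without overlap, on effects of 0.88 and 0.35. GFPT2, which feeds the hexosamine route, rose by 1.69 (1.18 and 0.51), and the hyaluronan synthase HAS3 by 1.82 on the line alone. SLC2A1 and SLC2A3 were named after their values were seen.

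Opposed effects were also called on the cholesterol, ATF4 and ribosomal lists, in numbers that moved with the number sets. Shares over all genes were 22.7% higher and 21.6% lower for the line, and 12.1% and 11.6% for glucose. They were 19.5% higher and 19% lower for the total, and 7.27% for opposed effects. Of 25 cholesterol synthesis genes, the line effect was lower for 14 and higher for 1, glucose was higher for 10 and lower for 1, and 7 had opposed effects. Without the number-set term glucose was higher for 4 and 3 were opposed, and in libraries 1 to 3 alone glucose was higher for 5 and 3 were opposed. The total was higher for 3 and lower for 8. FDFT1, the squalene synthase, had effects of -0.99 and 0.35 and a total of -0.64, while INSIG1, which holds the pathway in check, rose by 0.60. Of 24 genes of the ATF4 and serine synthesis list, the line was lower for 16 and higher for 2, glucose was higher for 8 and lower for 3, and 8 had opposed effects (5 without the number-set term, 3 in libraries 1 to 3 alone). Their total turned with the number set: 7 rose and 2 fell in libraries 1 to 3 alone (median 0.10), and 1 rose and 15 fell in 4 to 6 alone (median -0.33), against 1 and 6 over all libraries (median -0.10). SLC7A11, the cystine importer, stood at 15.7 to 31.9 CPM (median 20.4) against 48.4 to 65.9 CPM (median 59.4), without overlap, for a total of -1.47 on the line alone. Of 47 ribosomal protein genes, 37 rose and 1 fell (median 0.23): the line effect was higher for 45, glucose was lower for 15, and all 15 opposed the line. Without the term for number set 8 rose and none had a called glucose effect, and within libraries 1 to 3 alone 20 rose and none had opposed effects. Ribosomal protein genes took 4.35% ± 0.22 (SD, n = 3) of counts in CF high glucose libraries 1 to 3 and 3.35% ± 0.07 (SD, n = 3) in 4 to 6, and 3.76% ± 0.38 and 2.84% ± 0.09 in WT normal glucose; the part of this difference in the result was not tested.

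**Figure D5:**
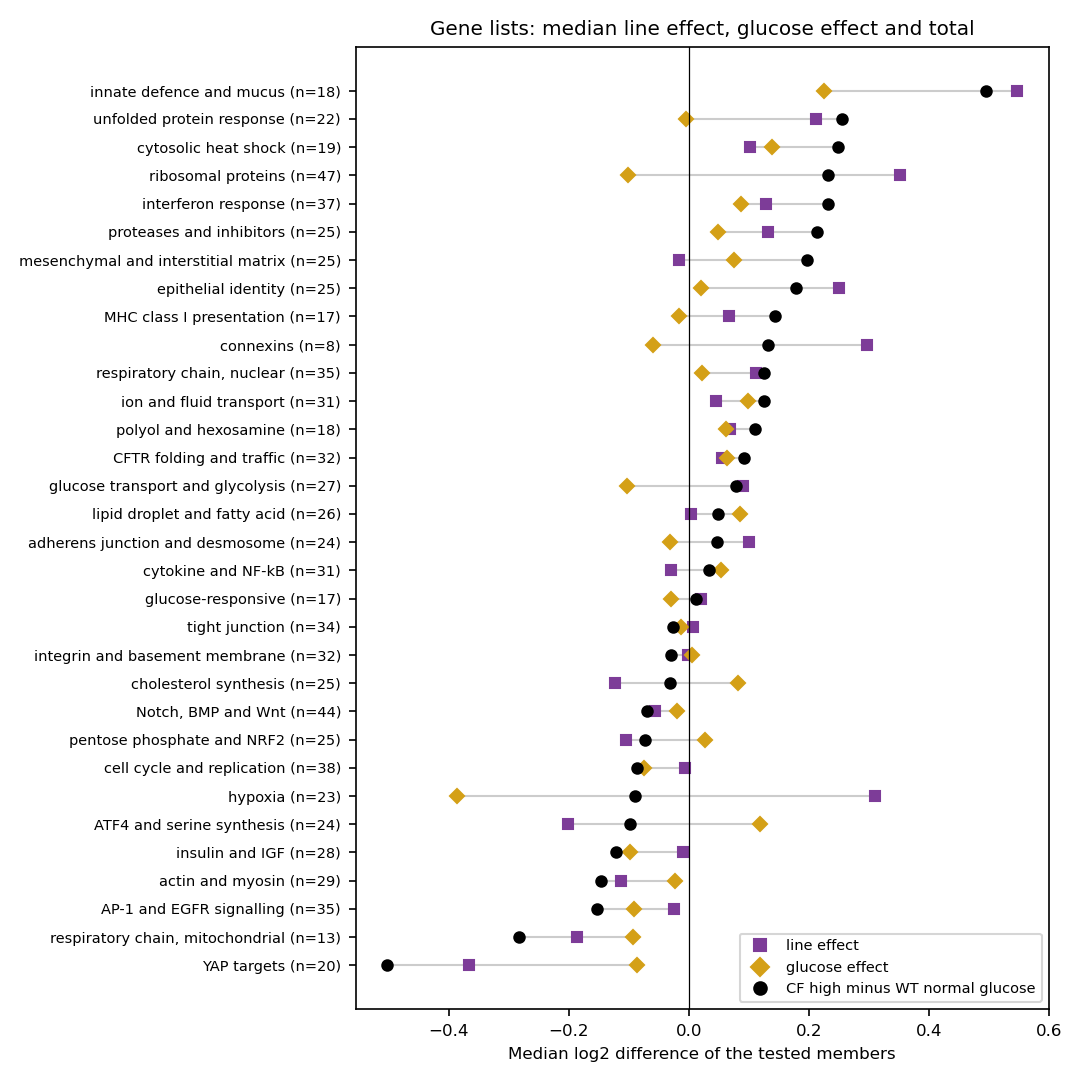
Median log2 line effect, glucose effect and total (x axis) of the tested members of each gene list except those for other cell types (y axis, with the number tested), ordered by the median total. Of the lists shown, hypoxia has the widest gap between its line (0.31) and glucose (-0.39) medians, which lie on opposite sides of 0, and innate defence and YAP targets stand at the ends with totals of 0.50 and -0.50.

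The heat shock and interferon lists held the most genes whose effects added up, 9 each. Across all genes, the total was higher for 19.5% and lower for 19%, and the line effect for 22.7% and 21.6%. Glucose was higher for 12.1% and lower for 11.6%, and 7.27% were opposed. Of 37 interferon response genes tested (38 listed), 20 rose and 1 fell in the total (median 0.23); the line effect was higher for 18 and lower for 6, glucose was higher for 15 and lower for none, and 9 added up against 4 that were opposed, where 5.88% of all genes added up. OAS2, an antiviral nucleotide synthetase, stood at 8.06 to 11 CPM (median 9.32) in CF high glucose and 3.03 to 4.71 CPM (median 3.38) in WT normal glucose, without overlap, on effects of 0.97 and 0.40. Its relative OAS1 rose by 0.82, and the antiviral GTPase MX1 by 0.50. In libraries 4 to 6 alone 15 rose and 6 fell. Of 19 cytosolic heat shock genes tested (20 listed), 13 rose and 1 fell (median 0.25), and 3 had opposed effects. The effects of 9 added up, a count that was 1 without the term for number set and 2 and 3 within the number sets alone. Among these, the chaperone HSPH1 rose by 0.39, mostly with glucose (0.29), and AHSA1, a co-chaperone of HSP90, by 0.36 in equal parts. MX1 was named after its value was seen.

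Of 33 genes of innate defence and mucus, 18 passed the filter on low counts. In the total 11 of these were higher and 4 lower (median 0.50), beside 19.5% and 19% over all genes. The line effect was higher for 11 and lower for 6 (22.7% and 21.6% over all genes). Glucose was higher for 6 and lower for 2 (12.1% and 11.6%). The effects added up in 4 (5.88%) and opposed each other in 4 (7.27%). SLPI, the leukocyte protease inhibitor, stood at 119 to 163 CPM (median 136) against 37.3 to 65.3 CPM (median 50.7) (1.13 and 0.33), and the iron-sequestering lipocalin LCN2 at 160.0 to 178 CPM (median 169) against 96.4 to 108 CPM (median 102) (0.46 and 0.26), both without overlap. The calprotectin subunits S100A8 (2.29) and S100A9 (0.91) rose on the line alone, and complement C3 rose by 0.31 on opposed effects (0.64 and -0.33). The acute-phase genes SAA1 and SAA2 had lower line effects (-0.50 and -0.31) and higher glucose effects (0.28 and 0.48), and their totals went apart, -0.22 for SAA1 and 0.17 for SAA2; as near copies, they may share reads. S100A8, S100A9, C3, SAA1 and SAA2 were named after their values were seen.

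Ion transport genes held both patterns. Of 31 tested (38 listed), 14 rose (7 in libraries 1 to 3 alone) and 5 fell (median 0.13), 5 added up and 7 were opposed. Among all genes 19.5% rose, 19% fell, 5.88% added up and 7.27% were opposed. CFTR itself stood at 577 to 720.2 CPM (median 640.0) in CF high glucose and 659.9 to 708 CPM (median 698) in WT normal glucose, overlapping groups, with an uncalled line effect of 0.05 (called at 0.14 in libraries 1 to 3 alone), a called glucose effect of -0.16 and a total of -0.11 ± 0.05 (adjusted p = 0.0823, edgeR). The total was called without CF high glucose library 2 (-0.13, adjusted p = 0.0480) and in libraries 4 to 6 alone (-0.21, adjusted p = 0.00269). DeltaF508 removes a single codon, so the gene's level does not check the genotype. SCNN1A, which encodes the alpha chain of ENaC, the channel for sodium uptake, stood at 107 to 116 CPM (median 109) against 60.2 to 75.0 CPM (median 66.1) (0.47 and 0.27), and SLC12A2, the basolateral cotransporter that loads chloride, at 13.7 to 15.5 CPM (median 14.7) against 26.5 to 32.8 CPM (median 28.7) (-0.65 and -0.34). Neither pair of groups overlapped, and the effects added up in opposite directions. NEDD4L, the ligase that removes sodium channels from the membrane, fell by 0.37 on -0.12 and -0.25, and the water and glycerol channel AQP3 rose by 0.88 on 0.36 and 0.52. ATP1B1, a sodium pump subunit, rose by 0.23 on opposed effects (-0.14 and 0.37). Of 32 genes tested for CFTR folding and traffic (33 listed), 14 rose and 3 fell. MYO5B, a motor of apical recycling, rose by 1.55 and the ligase SYVN1 fell by 0.50, both on the line alone. NEDD4L, AQP3 and ATP1B1 were named after their values were seen.

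Tight junction genes were called about as often as all genes. Of 34 tested (39 listed), 8 rose and 8 fell (4 in libraries 1 to 3 alone; median -0.03), none added up and 2 were opposed. Over all genes 19.5% were higher and 19% lower, 5.88% added up and 7.27% were opposed. CLDN4 stood at 678 to 743 CPM (median 700.5) against 544 to 729.7 CPM (median 633), and its total of 0.15 (adjusted p = 0.0259, edgeR) was lost without CF high glucose library 5 (0.14) or without WT normal glucose library 1 (0.13), 4 (0.13) or 5 (0.13). OCLN, at -0.13 (adjusted p = 0.0205), lost its call without CF high glucose library 4 (-0.12) or 6 (-0.12), and TJP1, the scaffold ZO-1, at -0.29, was not called in libraries 1 to 3 alone (-0.15, adjusted p = 0.116). CLDN4 (0.07) and OCLN (-0.11) were not called in libraries 1 to 3 alone either. CLDN23 (-1.33) and CLDN3 (-0.67) fell on the line alone. The adherens junction protein CDH1 had opposed effects (0.26 and -0.18) and a total of 0.08 that was not called, while the placental cadherin CDH3 rose by 0.57. Of 8 connexins and pannexins tested (10 listed), 3 rose and none fell; GJB2, a gap junction connexin, stood at 55.8 to 76.8 CPM (median 68.4) against 31.7 to 39.9 CPM (median 36.2) on the line alone, and PANX1 rose by 0.41 on opposed effects (0.71 and -0.30).

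Lists led by the line effect lay at both ends, and the cell cycle list, whose line calls were balanced, is given after them. Over all genes the total was higher for 19.5% and lower for 19%, and the line effect for 22.7% and 21.6%. The glucose effect was higher for 12.1% of all genes and lower for 11.6%, 5.88% added up and 7.27% were opposed. Of 22 unfolded protein response genes, 15 rose and none fell (median 0.26), the line was higher for 15 and lower for none, and glucose was higher for 3 and lower for 3. PDIA4, a disulfide isomerase of the endoplasmic reticulum, stood at 1623 to 1726 CPM (median 1634) against 749 to 1033 CPM (median 843) without overlap (total 0.93), and the chaperone HSP90B1 rose by 0.46. Of 20 YAP targets, 17 fell (11 in libraries 1 to 3 alone) and 1 rose (median -0.50); the line was lower for 13, glucose for 9, and 6 added up. CTGF, a matrix-associated growth regulator, stood at 16.7 to 20.0 CPM (median 19.0) against 42.2 to 50.5 CPM (median 47.3), and glucose moved it in opposite directions in the lines (-0.35 in CF, 0.28 in WT; interaction adjusted p = 8.07e-04, edgeR). CYR61, its close relative, fell by 0.80. NT5E, an ectonucleotidase, was the gene that rose (0.84) and was named after its value was seen. Of 29 actin and myosin genes tested (31 listed), 16 fell (10 in libraries 1 to 3 alone) and 2 rose, with MYLK, the myosin light chain kinase, at -0.78. On the cell cycle list of 38 genes the line effect was higher for 12 and lower for 12, and glucose was higher for 2 and lower for 15. In the total 17 fell and 3 rose (median -0.09), and 9 had opposed effects, while in libraries 1 to 3 alone 7 fell and 1 was opposed. TYMS, the thymidylate synthase, fell by 0.61, and CCND1, cyclin D, by 1.30.

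The averaged effects stand for both lines only where the glucose response was alike in them. The interaction, the glucose response in CF minus that in WT cells, was called for 146 genes (0.894%), 70 higher (0.428%) and 76 lower (0.465%), and for 73 with the library number as a block; 1970 genes had an unadjusted p under 0.05. Of the 6284 genes called in the total, 92 had a called interaction. The count moved with single libraries: it was 90 without CF high glucose library 6, 326, 79 and 76 without CF normal glucose library 3, 5 or 6, 87 and 61 without WT high glucose library 2 or 3, and 82 and 79 without WT normal glucose library 3 or 6. It was 1 in libraries 1 to 3 alone and 387 in 4 to 6 alone. PLIN2 had the lowest p with PHLDB2, and the glucose response of PLIN2 was -1.15 in CF and -0.35 in WT cells (interaction -0.79, adjusted p = 5.85e-04, edgeR). PHLDB2, a cortical anchor of microtubules, had no called line or glucose effect and a total of 0.01, with responses of 0.26 in WT and -0.17 in CF cells.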

How the data were processed

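A deposited table gives raw gene counts and another the FPKM values that the authors computed. HISAT2 and the hg38 build are named in the submitters' processing notes. For the counting tool, the annotation and all versions nothing is given in the sources used here. The labels name a directional and a non-directional protocol, so reads of overlapping or antisense genes may be mixed. Gene identifiers, starts and ends of all 58735 genes matched GENCODE release 29.

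Counts of 23 Transwell libraries were filtered (filterByExpr by group), TMM-scaled and fitted with edgeR 4.0.16 in R 4.3.3 (4 group means and the number-set term; 18 residual degrees of freedom, robust quasi-likelihood). Each contrast was Benjamini-Hochberg adjusted over 16338 genes. The alternatives included DESeq2 1.42.0 and limma 3.58.1 on log2(FPKM + 1). Precision is limited by 5 or 6 libraries a group.

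Members and lists were chosen with earlier results of these data known. Named genes were protein-coding: the 8 largest totals a side (at least 5 CPM in 1 group and 1 CPM in the other, no overlap), up to 4 a side near absent from 1 group, the 8 largest by their smaller effect in each of the 4 both-called classes, up to 4 called members a list by lowest p, 9 fixed genes and 10 interaction genes. Other members named were chosen after their values were seen. A few genes that the rule or lists hold are not reported here.

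Same-numbered libraries correlated in their deviations from group means (0.104 to 0.439 over 6 pairs), but so did other numbers of the same set (mean 0.310 against 0.302). After the number-set term none of the 6 pairs exceeded 0.1. Neither the labels nor these correlations show a pairing by number within a set. Tested on simulated data of 16128 genes, the fit recovered 20 to 25 of 25 planted genes per kind and fold (1.5 or 2), called none of 50 genes with equal opposed effects in the total, and made 6 to 9 false calls among 15928 unchanged genes per contrast. These counts were drawn from the fitted model itself, with independent libraries and far fewer changed genes than were called in the data. They check the code and do not measure the error rate in the data. The share of genes with identical nonzero counts was at most 0.0591 in any pair of libraries, so none was treated as a duplicate.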

Additional observations from a re-analysis of the deposited data

Results flagged for a closer look

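Library values were checked for genes named by size of effect, as near absent from 1 group, or as fixed genes. Genes named only from a list, for their interaction or after their values were seen were not checked. Of 226 groups of values checked, 14 held a library far from the others by Dixon's criterion, where chance gives about 1 in 20. In CF high glucose these were C3orf58 in library 2 (1.38 CPM), PKHD1 in library 3 (3.27 CPM), SGK1 in library 4 (9.59 CPM), CYP24A1 in library 4 (1.31 CPM) and OCLN in library 1 (136 CPM). In WT normal glucose they were PRDX2 in library 2 (27.6 CPM), MAN1A1 in library 2 (0.298 CPM), BDH1 in library 4 (15 CPM), ARRDC3 in library 2 (258 CPM) and CFTR in library 6 (659.9 CPM). In WT high glucose they were MAN1A1 in library 1 (0.347 CPM), GNAO1 in library 4 (2.33 CPM) and ANKRD37 in library 2 (12.3 CPM), and in CF normal glucose PPP2R2B in library 1 (0.199 CPM).

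The glucose response differed between the lines, CF minus WT, by a called interaction in edgeR for PLIN2 (-0.79), PHLDB2 (-0.42), CTGF (-0.63), HDAC9, a histone deacetylase (-0.59), APCDD1, a Wnt inhibitor (0.47), FHL2 (-0.55), ESPN, an actin-bundling protein (0.60), FNIP1, a partner of folliculin (-0.54), the clotting initiator F3 (-0.42) and PPP1R3B, a glycogen-targeting subunit (-0.52). In libraries 1 to 3 alone none of these 10 interactions was called.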

How the results depend on the processing

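Counts of called genes outside 1.5 times their reported value were as follows. Without the number-set term, the glucose effect gave 2241, same-direction genes 483, opposed genes 659 and the interaction 6. In libraries 1 to 3 alone these were 2065, 444, 558 and 1, and in 4 to 6 alone same-direction genes were 595 and the interaction 387. At an adjusted p under 0.01 they were 2345, 509, 659 and 35. The interaction gave 353 in DESeq2, 254 without a low-count filter, and 74, 76 and 16 on log2(FPKM + 1), log2(FPKM + 0.1) and log2(FPKM + 1) without filter. Added as steps through CF normal glucose, same-direction genes were 361, and through WT high glucose same-direction genes were 300 and opposed genes 421. The total of ANKRD37 reversed to -0.35 in libraries 4 to 6 alone. Leaving out 1 library at a time gave 5813 to 6388 calls for the total, 6856 to 7247 for the line, 3461 to 3957 for glucose, 842 to 992 same-direction, 1018 to 1217 opposed and 61 to 326 interaction genes.

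With the library number as a block (a pairing that neither the labels nor the correlations show) the total gave 6062, the line 6980, glucose 3511, same-direction genes 867, opposed genes 1071 and the interaction 73. Among named genes the block ended the total calls of SEMA5B and PAG1 and changed no other. Of the named genes' values under the other alternatives, 3477 kept a call with its direction or stayed uncalled, 92 lost a call, 5 gained one and 1 reversed. With 1 library left out, 6457 kept a call with its direction or stayed uncalled, 51 lost a call and 1 gained one. For values uncalled in both fits the direction was not compared, and some of these changed sign. The causes of these changes were not tested. List counts under other settings were chosen after seeing the data.

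Each genotype is 1 cell line. WT high glucose has only 2 libraries among numbers 4 to 6, so calls within that number set rest on the fewest values. Genes near 0 CPM carry few counts, and their fold changes depend on the prior count. Effects averaged over both lines or both glucose levels do not describe genes whose interaction is called.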

Other observations

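The share of genes called in CF high against WT normal glucose ran from 31.0% on chromosome 16 to 56.9% on chromosome 8, beside 38.5% over all genes. On chromosome 8, 56.9% of 538 tested genes were called, 41.4% lower and 15.4% higher, with a median total of -0.13. On chromosome 11, 51.3% were called (32.0% lower), and on chromosome 18, 49.1% (34.1% lower, median total -0.13), while on chromosome 7 28.9% were higher. The median line effect was -0.07 on chromosome 8 and -0.10 on chromosome 18, and the median glucose effects there were -0.01 and -0.00.

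Genes of the mitochondrial genome and nuclear genes of the respiratory chain lay on different sides of 0. Of 13 mitochondrially encoded genes, 5 were lower and none higher in the total (median -0.28; 1 lower in libraries 1 to 3 alone and 9 in 4 to 6 alone), and of 35 nuclear genes 12 were higher and 2 lower (median 0.13), beside 19.5% higher and 19% lower over all genes. The 12 became 4 without the number-set term, 8 in libraries 1 to 3 alone and 6 in 4 to 6 alone. In the collagen and matrix list, TGFBI, an adhesive matrix protein, stood at 597 to 894 CPM (median 769) against 238 to 261 CPM (median 252) (total 1.58), and LOXL2, a collagen cross-linking oxidase, at 533 to 669.6 CPM (median 589.7) against 1381 to 1489 CPM (median 1421) (total -1.26); neither pair of groups overlapped. The laminin chain LAMA3 rose by 0.72 on effects of 0.45 and 0.27.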
